A study of Saccharomyces cerevisiae with 6 samples.

Results

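The glutathione transferase family of budding yeast, Saccharomyces cerevisiae, was followed in arsenite-exposed cells with and without the transcriptional activator Met4. Its members were taken by gene symbol from the platform annotation. They are GTT1, GTT2 and GTT3, the omega-class genes ECM4 (also called GTO2), GTO1 and GTO3, and URE2, 7 of the 5539 genes measured. Each was printed as 2 adjacent spots, which were averaged on each array. The mutant cells were a met4 strain, a deletion according to the series title, kept in 0.2 mM arsenite, As(III), for 1 hour and labelled with Cy3. The other cells were the wild type under the same arsenite exposure, labelled with Cy5. Both were hybridised together on each of 6 arrays. Strain background is not given in the labels, both strains were exposed to arsenite, and no unexposed cells were among the arrays, so a difference present before arsenite cannot be told apart from one that arose in it. The labels do not state that the 6 replicates were separate cultures. The p-values therefore reflect only how much these arrays varied, part of which may be technical.

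Glutathione transferases join the tripeptide glutathione to electrophiles or use its thiol to reduce disulfides and other substrates. Glutathione is made from cysteine, so its supply depends on sulfur assimilation, the pathway that Met4 activates. Arsenite binds glutathione, and the complexes are carried into the vacuole by transporters such as Ycf1. Among the members, Gtt1 is associated with the endoplasmic reticulum and Gtt2 is a second transferase. The omega-class enzymes Ecm4, Gto1 and Gto3 act mainly as thiol transferases, Gto1 in the peroxisome. Ure2 has the transferase fold and glutathione peroxidase activity, and it is best known as the repressor that holds the GATA factors Gln3 and Gat1 in the cytoplasm and as the protein of the prion [URE3]. Gtt3 is a protein of uncertain function with a possible link to glutathione metabolism.

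All values are log ratios of the 2 channels, taken as log2 and centred on the median of each array, so that 0 is the typical spot. The deposited medians lay between -0.95 and 0.92. Neither the log base nor the numerator is stated. Mutant over wild type is called likely, from the order in the sample titles and from MET4 (YNL103W), which stood at -0.59 ± 0.25 (SD, n = 6) and below 0 on 6 of 6 arrays (limma, adjusted p = 0.0112, but 0.600 in the values as deposited, where it was above 0 on array 3 at 0.59). "Higher" and "lower" carry that proviso. Read as Cy5 over Cy3, the values would be wild type over mutant, and every direction would turn. Over the 6 arrays MET4 lay between the 3.36th (array 1) and 24.0th (array 3) percentile of genes, so it is a weak guide to direction. The spots may lie partly outside the deleted part of MET4, which was not tested. No dyes were swapped, and a gene's dye bias cannot be told apart from its response. Correlations between arrays, taken across genes, which are not independent replicates, ran from 0.0817 to 0.759 over the 15 pairs of arrays, with a median of 0.448. The highest r joined arrays 3 and 5, and array 2 had the lowest mean r with the others, 0.291.

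None of the 7 members passed the threshold over all genes (0 higher and 0 lower; limma with Benjamini-Hochberg adjustment, adjusted p under 0.05), while 15.1% of all genes did, 9.41% higher and 5.69% lower. At an unadjusted p under 0.05 there were 4 members, GTT2 and ECM4 above 0 and GTT3 and GTO1 below 0, against 1636 of the 5539 genes. The means of 4 members were above 0 and those of 3 below 0, so 57.1% were above 0, against 50.7% of all genes. The median of the members' means was 0.14, against 0.0053 over all genes. The absolute means of GTT1, GTT2, GTT3, ECM4 and GTO1 were above the median over all genes, 0.20, and those of GTO3 and URE2 were below it. The SDs between arrays of GTT1, GTT2, ECM4 and GTO1 were between the 86.5th and 99.7th percentile of genes, and those of GTT3, GTO3 and URE2 were at the 51.6th, 35.5th and 31.8th. Only GTT3 had the same sign on all 6 arrays, which was the case for 18.1% of all genes.

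**Figure D1:**
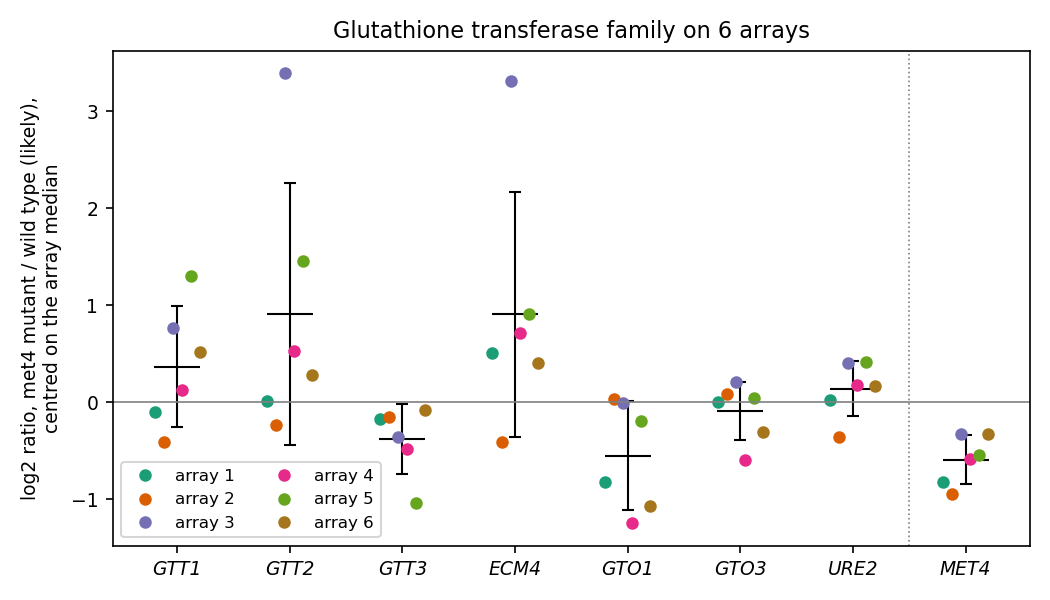
Centred log2 ratio (met4 mutant over wild type, likely) of each family member and of MET4. Points are the 6 arrays, horizontal bars the mean and error bars the SD. GTT2 and ECM4 reach 3.39 and 3.31 on array 3 and lie at 1.45 or lower elsewhere, while GTT3 is below 0 on every array.

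GTT2 (YLL060C) stood at 0.01, -0.24, 3.39, 0.53, 1.45 and 0.28 on arrays 1 to 6. It was above 0 on 5 of 6 arrays, and array 3 lay far above the rest. Its mean was 0.91 ± 1.35 (SD, n = 6), a 1.87-fold ratio, with a 95% interval of 0.11 to 1.70 that is not adjusted for the number of genes (limma, adjusted p = 0.120; two-sided exact permutation of the signs over the arrays, p = 0.0938). This interval uses a variance drawn toward that of all genes and is narrower than the gene's own SD alone would give. On array 3 only 5 genes were higher than GTT2, which ranked 6 of 5539, whereas on array 2 it was at the 32.6th percentile of genes. Without array 3 its mean was 0.41 (limma, adjusted p = 0.281). In the values as deposited its mean was 1.02 and passed (limma, adjusted p = 0.0261), although its SD there was larger, at 1.80. There the offsets between arrays stay in every gene, and limma's adjusted p followed a gene's mean far more than its own SD. ECM38 (mean 0.88, SD 0.49) had a limma adjusted p of 0.0821 as deposited, and GAT1 (mean 0.87, SD 0.99) had 0.0827. Passing as deposited therefore says little about agreement between arrays. With limma's robust empirical Bayes on the centred values the adjusted p of GTT2 was 0.206.

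ECM4 (YKR076W), an omega-class gene, stood at 0.51, -0.41, 3.31, 0.72, 0.92 and 0.41 on arrays 1 to 6. Array 3 was again the highest and array 2 the only one below 0. The mean was 0.91 ± 1.26 (SD, n = 6), a 1.88-fold ratio, with a 95% interval of 0.16 to 1.66 (limma, adjusted p = 0.0983; exact sign-flip permutation test, p = 0.0938). Like that of GTT2, this interval is narrower than the gene's own SD alone would give. ECM4 ranked 7 on array 3, directly after GTT2, and was at the 22.1st percentile of genes on array 2. The mean was 0.43 without array 3 (limma, adjusted p = 0.190) and 1.17 without array 2, where it passed (adjusted p = 0.0426). It also passed in the values as deposited (mean 1.02, SD 1.70, adjusted p = 0.0257), with the limit given for GTT2, and after quantile normalization (0.79, adjusted p = 0.0485). With limma's robust empirical Bayes on the centred values its adjusted p was 0.169.

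GTT2 and ECM4 were each other's nearest gene among all 5538 compared. The root mean square difference between their log2 ratios over the 6 arrays was 0.32, and ECM4 minus GTT2 averaged 0.0021 ± 0.35. The next genes were further away: ECM13 and THI74 for GTT2, at 0.50 each, and THI74 and PNC1 for ECM4, at 0.44 and 0.48. THI74 (1.12 ± 0.91; limma, adjusted p = 0.0134), PNC1, nicotinamidase (0.96 ± 0.84; adjusted p = 0.0214), and ECM13 (0.91 ± 0.95; adjusted p = 0.0404) were themselves higher in the mutant. Their high means follow in part from being picked for closeness to GTT2 or ECM4. No gene lay within 0.3 of GTT2 or of ECM4, against 771 for GTO3, which stayed near 0, where most genes lie. Both genes were also among the most variable on the arrays, with only 15 genes having a larger SD than GTT2 and 19 a larger SD than ECM4. The 2 spots of either gene differed by at most 0.28 on any array, so the spread lay between arrays and not between spots.

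**Figure D2:**
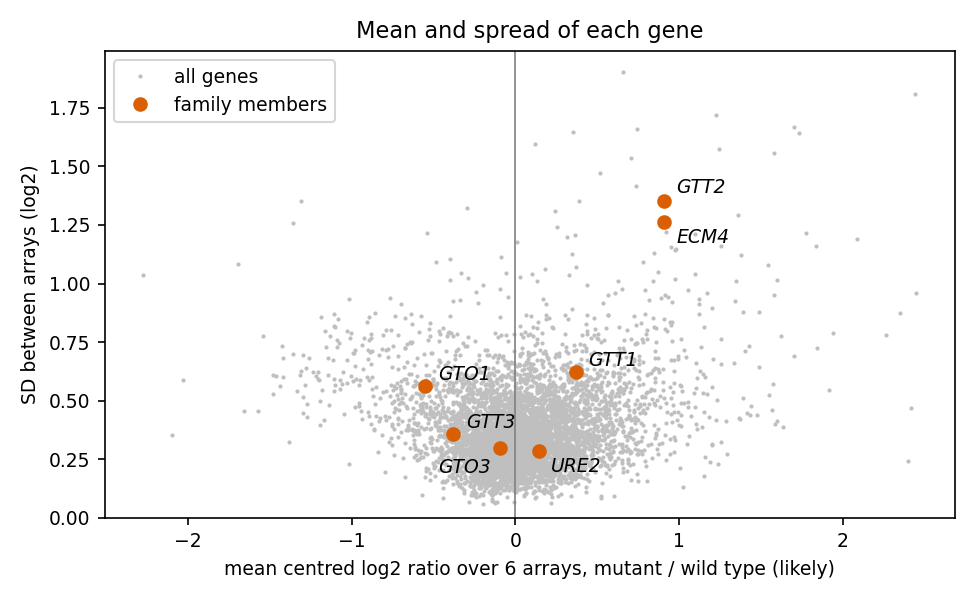
Mean centred log2 ratio (x axis, met4 mutant over wild type, likely) against the SD between the 6 arrays (y axis) for all 5539 genes in grey and the 7 family members in orange. GTT2 and ECM4 lie together at a mean of 0.91 and SDs of 1.35 and 1.26, near the top of the cloud, while GTO3 and URE2 lie in its dense part.

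GTT1 (YIR038C) stood at -0.10, -0.41, 0.77, 0.13, 1.31 and 0.52 on arrays 1 to 6. It was highest on array 5 and below 0 on arrays 1 and 2. The mean of 0.37 ± 0.62 (SD, n = 6) did not pass (95% interval -0.06 to 0.80; limma, adjusted p = 0.237; exact sign-flip permutation test, p = 0.188), and it was 0.18 without array 5. The gene closest to it was GSH1, which encodes the first enzyme of glutathione synthesis, at a root mean square difference of 0.15 over the 6 arrays. GSH1 itself averaged 0.31 ± 0.54 and did not pass (adjusted p = 0.273). ARC18, an Arp2/3 complex subunit (0.17), and AIM17 (0.18) followed, and 47 genes lay within 0.3 of GTT1.

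On arrays 1 to 6, GTT2 minus GTT1 was 0.11, 0.17, 2.62, 0.40, 0.14 and -0.23. The difference between these genes averaged 0.54 ± 1.04 (95% interval -0.56 to 1.63) and was not beyond the spread (two-sided exact permutation of the signs, p = 0.156, also after adjustment over the 4 pairs of members compared). Without array 3 it was 0.12.

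GTO1 (YGR154C), the peroxisomal omega-class member, had the lowest mean of the family. It stood at -0.82, 0.03, -0.0053, -1.25, -0.19 and -1.06 on arrays 1 to 6. On arrays 1, 4 and 6 it was clearly negative, and on the other 3 it was near 0. On arrays 4 and 6 GTO1 was among the lowest genes, ranking 19 and 23 from the bottom of 5539. Its mean of -0.55 ± 0.56 (SD, n = 6), a ratio of 0.683, did not pass (95% interval -0.95 to -0.15; limma, adjusted p = 0.0649; exact sign-flip permutation test, p = 0.0938). It passed without array 2 (-0.67, adjusted p = 0.0347), after quantile normalization (-0.71, adjusted p = 0.0334) and with array weights (-0.58, adjusted p = 0.0277), and had an adjusted p of 0.674 in the values as deposited.

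The genes nearest to GTO1 were FMO1, a flavin-containing monooxygenase gene (root mean square difference 0.23), HXK2, the main glucose-phosphorylating hexokinase gene (0.30), and NCA3 (0.31). Of these HXK2 was lower in the mutant (-0.70 ± 0.37; limma, adjusted p = 0.0090), and FMO1 (-0.47 ± 0.76) and NCA3 (-0.38 ± 0.54) did not pass. In the R64 gene order GTO1 lies beside CYS4 (YGR155W), which encodes cystathionine beta-synthase of the route to cysteine and was lower on 6 of 6 arrays (-1.28 ± 0.57; limma, adjusted p = 0.00113). Its other neighbour, YGR153W, stood at 0.0018 ± 0.42 (adjusted p = 0.995). Of the 14 neighbours of the members 2 were called, CYS4 and GAD1, a share of 14.3% beside 15.1% of all genes. CYS4 stood at -1.89, -2.08, -0.86, -1.04, -0.69 and -1.14 on arrays 1 to 6. Array 2, its lowest, was the highest for GTO1, so the neighbours did not follow each other there. On the remaining arrays both genes had their highest values on arrays 3 and 5, and a link between them was not tested. The median of 10 sulfate assimilation genes, a list taken with its values known, was -0.90, -0.86, -0.06, -0.64, 0.09 and -0.41 on the same arrays. GTO1 was near 0 on arrays 3 and 5, where this median was also near 0, and on array 2, where it was not.

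GTO3 (YMR251W) stayed near the array median. Its values were 0.0026, 0.09, 0.21, -0.59, 0.04 and -0.30 on arrays 1 to 6, with 4 of 6 above 0 and array 4 the lowest. The mean was -0.09 ± 0.30 (SD, n = 6; limma, adjusted p = 0.707; exact sign-flip permutation test, p = 0.562). Its 95% interval ran from -0.39 to 0.21, and the sign of the mean turned in 3 of the alternatives tried. Its neighbour GAD1, glutamate decarboxylase, was higher in the mutant at 0.96 ± 0.48 (limma, adjusted p = 0.00312), and HOR7 on its other side stood at 0.64 ± 0.68 (adjusted p = 0.0582). The genes most like GTO3 were GET1 (0.07), MMM1 (0.07) and YKL162C (0.08).

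**Figure D3:**
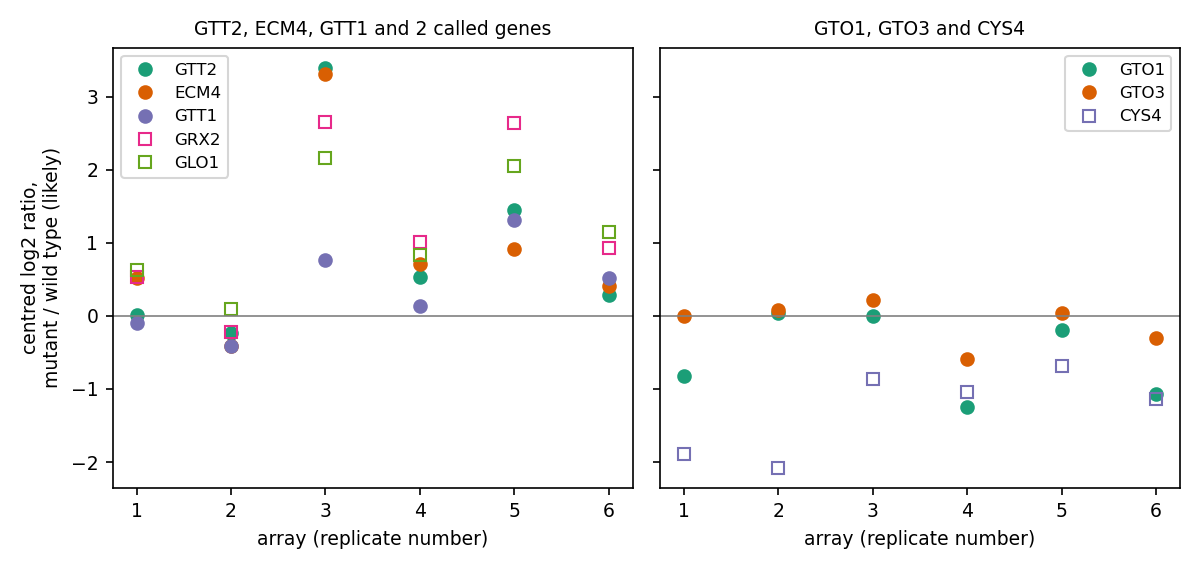
Centred log2 ratio (y axis, met4 mutant over wild type, likely) on each array (x axis, replicate number, which has no order). Left, GTT2, ECM4 and GTT1 (filled) with GRX2 and GLO1 (open squares): arrays 3 and 5 hold the 2 highest values of each gene shown. Right, GTO1 and GTO3 (filled) with CYS4 (open squares): GTO1 is at or below -0.82 on arrays 1, 4 and 6 and between -0.19 and 0.03 on arrays 2, 3 and 5.

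Within the omega class the mean of ECM4 was above 0 and those of GTO1 and GTO3 below it, and none of the 3 passed. GTO1 minus ECM4 was -1.34, 0.44, -3.32, -1.96, -1.11 and -1.47 on arrays 1 to 6, with a mean of -1.46 ± 1.22 (95% interval -2.74 to -0.18). GTO3 minus ECM4 averaged -1.0 ± 1.19 (95% interval -2.25 to 0.25), and -0.58 without array 3, where it was -3.10. Each was below 0 on every array but array 2. GTO1 minus GTO3 was smaller, at -0.46 ± 0.33 (95% interval -0.80 to -0.11), but below 0 on 6 of 6 arrays. The exact two-sided sign-flip permutation p-values were 0.0625, 0.0625 and 0.0312, and each became 0.0833 after adjustment over the 4 pairs, so no pair passed. With 6 arrays 0.0312 is the smallest p this test allows. A single pair at this limit could not pass after adjustment over the 4 pairs unless others reached it too. For GTO1 minus GTO3, not passing was therefore set by the limit of the test. Centring cancels in these differences, which are therefore the same in the values as deposited.

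GTT3 (YEL017W) stood at -0.17, -0.15, -0.35, -0.48, -1.04 and -0.08 on arrays 1 to 6. It was below 0 on every array, lowest on array 5. Its mean of -0.38 ± 0.36 (SD, n = 6), a ratio of 0.769, did not pass over all genes (95% interval -0.70 to -0.06; limma, adjusted p = 0.105), although the exact sign-flip permutation test of this gene alone gave p = 0.0312. Without array 5 the mean was -0.25. The genes closest to GTT3 over the arrays were RIX1 (root mean square difference 0.10), OLA1 (0.11) and PRP43 (0.14), and none of these passed (adjusted p of 0.0648, 0.145 and 0.110). RIX1 and PRP43 act in ribosome assembly and OLA1 encodes an ATPase.

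URE2 (YNL229C), the nitrogen regulator, stood at 0.03, -0.36, 0.40, 0.18, 0.42 and 0.17 on arrays 1 to 6. It was below 0 on array 2 only. The mean was 0.14 ± 0.29 (SD, n = 6), with a 95% interval of -0.15 to 0.44 (limma, adjusted p = 0.533; exact sign-flip permutation test, p = 0.219). It was 0.09 without array 5 and 0.24 without array 2. The genes most like it were CCC1, RDS3 and YJR115W, each at 0.10, and 531 genes lay within 0.3. Of the GATA factors of nitrogen catabolite repression, 1 of 4 was higher, against 9.41% of all genes: GAT1, an activator restrained by Ure2 (0.76 ± 0.48; limma, adjusted p = 0.0113). Its call was lost as deposited (0.0827) and with the closest arrays averaged in pairs (0.0551). GLN3, the other activator, averaged 0.15 ± 0.23, and the list median was 0.10. Of 19 measured targets of nitrogen catabolite repression, 4 were lower, none higher and 15 did not pass, with a median of -0.25. Over all genes 5.69% were lower and 9.41% higher. The largest was PUT1, proline oxidase, at -0.90 ± 0.45 (adjusted p = 0.0039, and 0.149 as deposited). DAL1, allantoinase (-0.45 ± 0.26; adjusted p = 0.0375), and DAL7, a malate synthase of allantoin use (-0.44 ± 0.23; adjusted p = 0.0384), were lower on 6 of 6 arrays. The DAL1 call was kept among single-array omissions only without array 2 and the DAL7 call only without array 4, and neither passed as deposited.

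Ordered by mean, the members ran ECM4, GTT2, GTT1, URE2, GTO3, GTT3 and GTO1. No member differed from the next in this order by more than the SD of their difference over the arrays. The largest such step was GTT2 to GTT1. Besides GTT2 and ECM4, the most alike members were GTT1 and URE2, at a root mean square difference of 0.42, and the least alike were GTT2 and GTT3, at 1.89.

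Other genes that use or handle glutathione were taken from lists, and their calls are given beside the 15.1% of all genes called. Of 7 genes for glutathione synthesis, reduction and breakdown, 1 was higher, ECM38, gamma-glutamyltranspeptidase, which degrades glutathione and its conjugates (0.76 ± 0.45; limma, adjusted p = 0.00925, and 0.0821 as deposited). None was lower, and the list median was 0.31. Of 7 transporters of glutathione and its conjugates, 2 were higher and none lower, with a list median of -0.17. They were YCF1, the vacuolar importer of glutathione conjugates (0.45 ± 0.22; limma, adjusted p = 0.0341), and VMR1, a related vacuolar transporter (0.59 ± 0.54; adjusted p = 0.0462). Among single-array omissions the YCF1 call held only without array 2 and the VMR1 call only without array 4, and neither passed as deposited.

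Of 8 glutaredoxins, small thiol oxidoreductases that use glutathione, 1 was higher and none lower, with a median of -0.02. This was GRX2, whose product also has transferase activity (1.25 ± 1.16; limma, adjusted p = 0.0213). It lost its call without array 3 (adjusted p = 0.0684), 5 (0.0640) or 6 (0.0567), with centring within runs of spots (0.0766) and with the closest arrays averaged in pairs (0.148). Of 5 other genes for glutathione-dependent detoxification, 2 were higher and none lower, with a median of 0.53. GLO1 encodes the glyoxalase that acts on the glutathione adduct of methylglyoxal (1.15 ± 0.81; limma, adjusted p = 0.0081), and GLO4 the mitochondrial glyoxalase II (0.69 ± 0.36; adjusted p = 0.0090, and 0.127 as deposited). Both were above 0 on 6 of 6 arrays, and both lost their calls with the closest arrays averaged in pairs (adjusted p of 0.0694 for GLO1 and 0.0638 for GLO4). GRX2 stood at 0.53, -0.22, 2.65, 1.01, 2.64 and 0.92 on arrays 1 to 6, highest on arrays 3 and 5 and lowest on array 2. GTT2 and ECM4 had their highest and lowest values on these same arrays. Over all genes, too, arrays 3 and 5 had the highest r, 0.759, and array 2 the lowest mean r, 0.291. The same arrays were highest and lowest for AAD14, a gene picked from outside these lists. The pattern was thus not limited to genes of glutathione, but the share of all genes that show it was not counted.

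Of 6 other proteins with a transferase-like domain, none passed (limma; median -0.18). The nearest to the threshold was TEF4, a translation elongation factor subunit, at -0.51 ± 0.44 (adjusted p = 0.0502), and it passed as lower under 6 of the 17 alternatives. Of 4 stress regulators, 1 was higher and none lower, with a median of 0.06: YAP1, the activator of oxidative stress genes, at 0.97 ± 0.28 (limma, adjusted p = 8.75e-04), above 0 on 6 of 6 arrays. YAP1 stood at 1.29 on array 3, against 0.58 to 1.23 on the other arrays, and any tie to GTT2 or ECM4 was not tested.

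**Figure D4:**
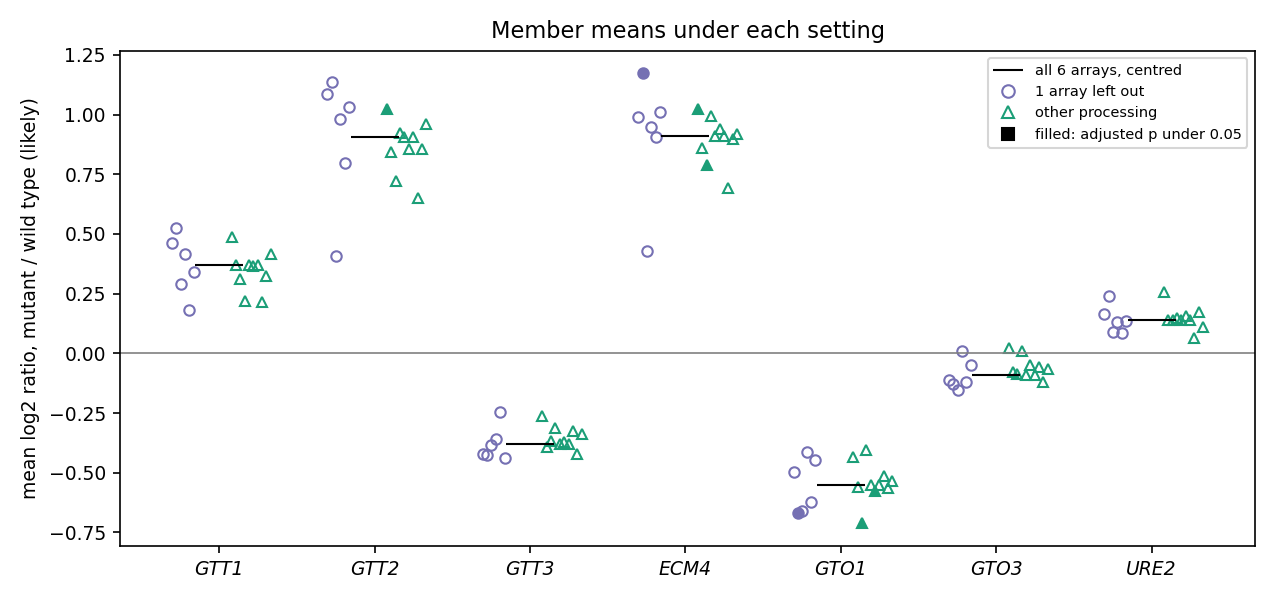
Mean log2 ratio (y axis, met4 mutant over wild type, likely) of each member with all 6 arrays centred (black bars), with 1 array left out (circles) and with other processing (triangles, without the reading as natural logarithms). Filled symbols have an adjusted p under 0.05: they occur for GTT2, ECM4 and GTO1 only. The lowest circles of GTT2 and ECM4, 0.41 and 0.43, leave out array 3.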

How the data were processed

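Total RNA of the met4 mutant (Cy3) and the wild type (Cy5) was measured on 6 two-colour arrays, per the labels. The deposited values are log ratios, taken as log2, for 13056 spots; how the authors scanned, background-corrected and normalized the arrays is not given in the sources used here, and no intensities were used. The log base was assumed, since base 10 would make the highest value, 5.32, a 211208-fold ratio; natural logarithms would multiply every value by 1.44. Exact zeros (134 values, none (0) at a member) were set to missing. Arrays were centred on their median over all spots. Of the spots, 11138 had 1 gene symbol, none several (0) and 1918 none; symbols were updated through R64 gene identifiers (5 unmatched). Spots were averaged per gene. Neighbouring spots of a gene correlated at r of 0.899 to 0.984.

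Each gene's mean was compared with 0 in limma (version 3.58.1, R version 4.3.3; intercept, eBayes), adjusted over 5539 genes; having only 6 arrays limits the precision. On simulated log ratios of 5539 genes, 200 changed, 35.8%, 89.6% and 100% of changes of 0.5, 1 and 2 were recovered, with 8 of 158 calls false. The simulated noise was independent between genes, without patterns shared on an array, so these shares may not hold for the real arrays. They are averages over genes and do not apply to the most variable ones, such as GTT2 and ECM4. Intervals of single genes are limma's, those of pair differences use the t distribution over 6 arrays. For genes more variable than most, such as GTT1, GTT2, ECM4 and GTO1, limma's intervals are narrower than their own SDs alone would give. The members and lists were chosen with earlier results of these data known. Named are the members, MET4, the 3 genes nearest to each member by root mean square difference, and up to 3 called genes per list (otherwise the 1 nearest the threshold). CYS4, YGR153W, GAD1 and HOR7 were added as chromosomal neighbours. AAD14, GLN3 and the list of sulfate assimilation genes were added outside this rule. Of 20 nitrogen catabolite repression targets listed, 19 were measured. Figures used matplotlib 3.10.9.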

Additional observations from a re-analysis of the deposited data

Results flagged for a closer look

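ECM4 on array 3, at 3.31, stood apart from its other 5 values, the nearest of which was 0.92 on array 5 (gap over range 0.644, above Dixon's 95% critical value for 6 values). The difference GTT2 minus GTT1 on array 3, at 2.62, stood apart from the nearest other value, 0.40 (gap over range 0.779). GTT2 itself, at 3.39 on array 3, did not reach that limit, with a ratio of 0.534. The rule was applied to 12 sets of values, and chance alone marks about 1 set in 20. On array 3 the 2 spots of ECM4 and of GTT2 differed by no more than 0.28, and the cause of the high values was not tested.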

How the results depend on the processing

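Of 17 alternatives, the values as deposited called 246 genes (187 above 0, 59 below 0) in place of 836 (521 and 315), with 24.0% of calls below 0 in place of 37.7%, and 2 members (both higher, GTT2 and ECM4) in place of none (0). Uncentred values put the median of all gene means at 0.12. They also keep the offsets between arrays in every gene. In that setting limma's adjusted p followed a gene's mean far more than its own SD. Calls gained or lost as deposited therefore say little about agreement between arrays. Averaging the closest arrays in pairs left 4 units and 366 calls (203 higher, 163 lower) and no member. Quantile normalization called 2 members (1 higher, 1 lower) and array weights 1 (1 lower). Leaving out 1 array gave 456 to 965 genes (291 to 663 higher, 165 to 302 lower) and 0 to 2 members (0 to 1 higher, 0 to 1 lower), the 2 being ECM4 and GTO1 without array 2. The mean of GTO3 turned above 0 as deposited (0.023), with centring in 48 runs of spots (0.0097) and without array 4 (0.0081), with -0.15 to 0.0081 over the single-array omissions. GTT1, GTT2, GTT3, ECM4, GTO1 and URE2 kept their sign in all 17, and the 4 pair differences kept theirs in all 15 run. Other causes of these changes were not tested. No paired analysis was possible because all 6 arrays form 1 group, each comparing mutant and wild type directly. Without intensities, spots near background could not be marked.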
